A study of Mus musculus with 30 samples.

Results

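Nf1 and Evi2a were followed through hippocampal maturation in wild-type mice and in mice that carry 1 disrupted copy of Nf1. Nf1 encodes neurofibromin, and Evi2a lies inside an Nf1 intron. The members were all probe sets annotated with 1 of 4 symbols, Nf1 or the intron genes Evi2a, Evi2b and Omg, dim probe sets included. A probe set is a group of short array probes that together give 1 intensity. The array carried 3 such probe sets for 2 genes, out of 12488 probe sets and 8252 named genes: 2 probe sets for Evi2a and 1 for Nf1. No probe set was annotated to Evi2b or Omg alone, so these genes are not analysed here.

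RNA came from the hippocampus of male pups on Affymetrix MG-U74Av2 arrays, and each of the 30 libraries pooled 2 pups of the same genotype. The pups were bred from C57BL/6 mice and mice heterozygous for Nf1; the labels do not describe the disrupted Nf1 allele. Wild-type libraries numbered 3 at postnatal day 10 (P10), 4 at P15 and 2 each at P18, P20, P28 and P32. Heterozygous (Nf1+/-) libraries numbered 4 at P10, 4 at P15, 2 each at P18, P20 and P28, and 1 at P32. Every library is a separate pool by its label, and p-values measure the spread between such pools. The library titles carry a number and a letter (1a to 2d) whose meaning is not given.

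Neurofibromin switches off Ras signalling by speeding the hydrolysis of the GTP that Ras holds, and loss of 1 NF1 copy causes the human disorder neurofibromatosis type 1, which often includes learning difficulties. Evi2a, Evi2b and Omg sit together in a long Nf1 intron and are read in the opposite direction to Nf1. Evi2a encodes a small predicted membrane protein first known from a viral integration site in mouse myeloid leukaemia, Evi2b a membrane protein of blood cells, and Omg the oligodendrocyte myelin glycoprotein, which inhibits the growth of nerve fibres. In the hippocampus the weeks studied are those in which oligodendrocytes, the myelin-forming glia, mature.

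On mouse chromosome 11 (RefSeq, GRCm38.p6) the body of Nf1 spans chr11:79339590-79581609, or 242020 bases, on the plus strand. Omg lies at chr11:79500982-79504082, Evi2b at chr11:79513385-79523762 and Evi2a at chr11:79526560-79530609, a body of 4050 bases that begins 186970 bases after the first base of Nf1. RefSeq also lists a gene named Evi2 on the minus strand at chr11:79513385-79530609, which ends at the same base as Evi2a. The RefSeq promoter table (250 bases before to 50 bases after a start) held windows for Nf1, Evi2 and Evi2b. The windows of Nf1 and of Evi2 are printed here as those tied to the measured genes. The start that the table uses for Nf1 lies inside the gene body given above, so its window does not hold the first base of that body. Both are 300 bases, 5′ to 3′ on the gene's own strand, and capitals mark CG dinucleotides.
Nf1 (chr11:79339642-79339941, plus strand): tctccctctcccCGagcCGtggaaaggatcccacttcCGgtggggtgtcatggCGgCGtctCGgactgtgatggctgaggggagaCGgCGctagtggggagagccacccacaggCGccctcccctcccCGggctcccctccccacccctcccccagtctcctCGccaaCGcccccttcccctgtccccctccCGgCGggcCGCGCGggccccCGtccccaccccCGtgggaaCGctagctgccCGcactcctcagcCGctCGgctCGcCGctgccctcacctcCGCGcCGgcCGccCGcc
Evi2, whose window covers the start of Evi2a (chr11:79530560-79530859, minus strand): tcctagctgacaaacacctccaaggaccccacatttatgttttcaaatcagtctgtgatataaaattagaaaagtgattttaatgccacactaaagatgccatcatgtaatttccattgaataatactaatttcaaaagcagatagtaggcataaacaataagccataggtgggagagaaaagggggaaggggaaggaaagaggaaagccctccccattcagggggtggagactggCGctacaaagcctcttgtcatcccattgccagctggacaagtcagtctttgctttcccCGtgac

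The Nf1 window is 75.7% G and C and holds 30 CG dinucleotides, and 96.7% of the 32851 mouse windows of the same length have a lower share of G and C. The Evi2 window is 43.3% G and C with 2 CG dinucleotides, and 17.3% of windows lie below it; the median window is 52.67% G and C and holds 7. A search on both strands for the TATA box TATAAA, the box CCAAT, the GC box GGGCGG, the E-box CANNTG, the SOX motifs ACAAAG and its variant ACAATG, and the motif TGACTCA found 3 matches in the Evi2 window. They were TATAAA at position -192 counted from the start as 0, ACAAAG at -10 and the E-box at 15. These letters occur in 13.62%, 18.71% and 72.31% of all windows, respectively. The Nf1 window held 1 match, GGGCGG at 41, a motif found in 35.66% of windows. No matches overlapped, and a match describes letters and no binding.

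Intensities were used as deposited, on a linear scale that had been brought to a common trimmed mean per array, and array medians ran from 49.99 to 59.1. They were raised to a floor of 1 and turned to log2. The lowest 40% of 12422 non-control probe sets by mean log2 were left out, which left 7453 for testing with limma. A change was called at a Benjamini-Hochberg adjusted p under 0.05 over all probe sets tested. The lowest correlation between libraries of a group was 0.944, at heterozygous P18, and the heterozygous P18 library coded 1b had the highest log2 ratio of the 3′ to the 5′ Gapdh control, 0.48 in a range of -0.33 to 0.48. Of 11 listed markers of hippocampal neurons, 10 were on the array and all 10 passed the filter.

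Evi2a rose steeply with age in both genotypes and was among the strongest risers on the array. Its 2 probe sets are designed on the same source sequence and may share probes, so they are 2 readings of 1 transcript and not independent measurements; they are called here the brighter and the dimmer by their mean intensity. Over the 12 group means they correlated at r = 0.985. In wild type, the brighter probe set read 46.4, 50.7 and 52.7 at P10. It read 58.1, 59.2, 91.7 and 96.6 at P15, 127 and 146 at P18, and 103 and 122 at P20. It then read 226 and 247 at P28, and 279 and 292 at P32. Every wild-type library from P28 on was thus above every younger wild-type library, while P18 and P20 were out of order with age. The share of all probe sets with such an order was not counted.

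In Nf1 heterozygotes the brighter probe set read 29.2, 34.7, 38.8 and 42.3 at P10. The P15 libraries read 67.6, 80.3, 159 and 180. At P18 the libraries read 146 and 287, at P20 182 and 228, at P28 318 and 358, and at P32 the only library read 295. The P15 libraries fell into a low and a high pair, and the 2 P18 libraries lay far apart.

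The dimmer probe set followed the same course. In wild type it read 20.4, 23.5 and 26.7 at P10, 51.7, 54.7, 57.9 and 61.2 at P15, 70.2 and 80.7 at P18, 74.2 and 94.0 at P20, 125 and 155 at P28, and 212 and 226 at P32. In heterozygotes it read 15.5, 18.2, 21.7 and 24.9 at P10, 48.5, 57.9, 96.9 and 119 at P15, 95.9 and 196 at P18, 169 and 171 at P20, 218 and 230 at P28, and 225 at P32. The groups stand in nearly the same order as on the brighter probe set, with P10 lowest and P28 and P32 highest in both genotypes.

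**Figure D1:**
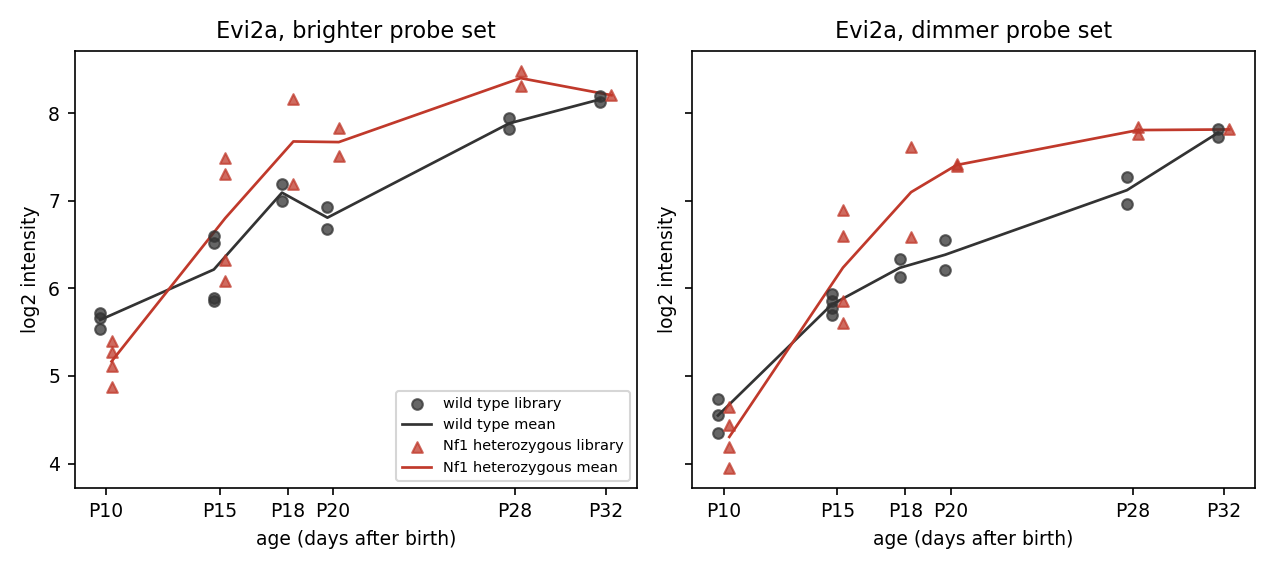
Log2 intensity of the brighter (left) and dimmer (right) Evi2a probe set against age in days after birth; each point is 1 library (a pool of 2 pups), circles wild type, triangles Nf1 heterozygous, and lines join group means. The P10 libraries of both genotypes are lowest, the heterozygous means lie above the wild-type means from P15 to P28, and the genotypes meet at P32.

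From P10 to the mean of P28 and P32, a difference called maturation here, the brighter probe set rose by 2.38 log2 units in wild type (SE 0.27, 5.21-fold, limma adjusted p = 3.4e-07) and by 3.14 in heterozygotes (SE 0.28, 8.79-fold, adjusted p = 9.7e-09). The dimmer probe set rose by 2.90 in wild type (SE 0.25, 7.45-fold, adjusted p = 8.0e-09) and by 3.51 in heterozygotes (SE 0.26, 11.4-fold, adjusted p = 3.7e-10). All P10 readings of the dimmer probe set lay below the filter level, an intensity of 30.8. The size of the rise depended on how low readings were treated. With log2(value + 32) the dimmer probe set rose by 1.9015 in wild type and 2.303 in heterozygotes, and the brighter by 1.833 and 2.352, all still called. Calls were common in these contrasts: 38.2% of all tested probe sets were called in wild type and 36.5% in heterozygotes, and 18% and 17% of all tested probe sets, respectively, were called as higher. By size, the wild-type rise of Evi2a ranked 20 among the 7453 probe sets on the brighter and 12 on the dimmer probe set. The heterozygous rise exceeded the wild-type rise by 0.76 (95% CI -0.04 to 1.55, adjusted p = 0.739) and 0.61 (95% CI -0.12 to 1.34, adjusted p = 0.768), respectively. Neither difference was called. Limma called 0% of probe sets in this contrast, with 508 at an unadjusted p under 0.05.

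Averaged over genotypes, Evi2a rose between P10 and P15 on both probe sets. In this step the brighter probe set rose by 1.10 (SE 0.18, adjusted p = 7.9e-05) and the dimmer by 1.60 (SE 0.17, adjusted p = 1.7e-07), where 25.9% of all tested probe sets were called and 12.5% of all were called as higher. In heterozygotes the step was called on both, at 1.63 and 1.93, with 21.2% of probe sets called. In wild type the dimmer probe set rose by 1.26 (adjusted p = 0.0026), while the brighter differed by 0.57 without a call (95% CI 0.02 to 1.13, adjusted p = 0.241), with 5.76% of probe sets called. For the brighter probe set in wild type this step was smaller than those from P15 to P18 (0.88, adjusted p = 0.225) and from P20 to P28 (1.08, adjusted p = 0.0659), neither of them called. The genotypes' steps differed by 1.06 (adjusted p = 0.551) and 0.67 (adjusted p = 0.764); limma called 0% of probe sets in that difference, with 505 at an unadjusted p under 0.05.

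Of the later steps, averaged over genotypes, those from P15 to P18 and from P20 to P28 were called on the brighter probe set and not on the dimmer. From P15 to P18 it rose by 0.88 (adjusted p = 0.0295; 3.84% of probe sets called), against 0.64 on the dimmer (adjusted p = 0.0633). From P20 to P28 it rose by 0.90 (adjusted p = 0.0259; 8.06% called), against 0.57 on the dimmer (adjusted p = 0.125). From P18 to P20 the differences were -0.15 and 0.23, and from P28 to P32 they were 0.04 and 0.33, none of them called, in contrasts with 0.0134% of probe sets called each. The P15 to P18 call ended when any of 5 libraries was left out: wild-type P18 1c or 1d, wild-type P15 2d, heterozygous P15 1d (adjusted p = 0.0587) or heterozygous P18 1b (0.63, adjusted p = 0.201). The P20 to P28 call ended without either wild-type P20 library, either wild-type P28 library, heterozygous P20 1b or heterozygous P28 1a, with adjusted p up to 0.130. On the dimmer probe set the P15 to P18 step was called without heterozygous P18 1a (0.90, adjusted p = 0.0037) or heterozygous P15 2d (0.75, adjusted p = 0.0230), and the P20 to P28 step with only the groups compared in the fit (adjusted p = 0.0214). Both calls on the brighter probe set ended with the Gapdh ratio as a covariate, at 0.70 (adjusted p = 0.113) and 0.74 (adjusted p = 0.0976).

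Ordered by the brighter probe set's mean log2 level, the 12 groups ran from heterozygous P28 (8.399 ± 0.12, SD, n = 2) through heterozygous P32 (8.20, n = 1), wild-type P32 (8.16 ± 0.05, n = 2), wild-type P28 (7.88 ± 0.09, n = 2), heterozygous P18 (7.68 ± 0.69, n = 2) and heterozygous P20 (7.67 ± 0.23, n = 2). The lower part ran through wild-type P18 (7.09 ± 0.14, n = 2), wild-type P20 (6.81 ± 0.18, n = 2), heterozygous P15 (6.80 ± 0.70, n = 4) and wild-type P15 (6.22 ± 0.40, n = 4) to wild-type P10 (5.64 ± 0.09, n = 3) and heterozygous P10 (5.17 ± 0.23, n = 4). The libraries of neighbours in this order overlapped between wild-type P28 and heterozygous P18, between heterozygous P18 and P20, between wild-type P20 and heterozygous P15, and between heterozygous and wild-type P15. The other neighbours did not overlap. For groups of unlike age, the share of all probe sets that separate in the same way was not counted, so this order is a description.

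Evi2a and the genes of myelin both rose with age. Of 21 listed markers of myelinating oligodendrocytes, 10 were on the array and 8 were tested. All 8 rose in wild type and in heterozygotes, with a median maturation of 3.27 and 4.05, beside medians of -0.04 and -0.06 over all probe sets tested. Of all tested probe sets, 18% and 17%, respectively, were called as higher. In wild type, Mog, a glycoprotein of the outer myelin surface, rose by 4.97, and Mobp, an oligodendrocyte basic protein of the sheath, rose by 4.78. Mal, a membrane-sorting protein, rose by 4.29 and Cldn11, the tight-junction claudin of central myelin, by 3.57. Mog read low at wild-type P10, at a mean log2 of 3.52 beside a filter level of 4.95. With log2(value + 32) its wild-type rise was 3.14, below those of Mobp (4.28), Mal (3.41) and Cldn11 (3.20). The summed intensity of the 10 genes ran from 997 to 1139 in wild type and from 757 to 936 in heterozygotes at P10, and had reached 7700 to 8797 and 9011 to 9187 at P28. In bulk tissue such as this, more cells of a type and more RNA per cell cannot be told apart.

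The share of the whole rise that was reached by P15 was lower for Evi2a than for each of the 8 myelin genes. As a description made after the values were seen, 24.2% of the brighter probe set's wild-type rise and 43.6% of the dimmer's had been reached by P15. The wild-type P15 libraries with title numbers 1 and 2 had means of 6.56 and 5.87 on the brighter probe set. On the dimmer both means were 5.81, and for the myelin genes they were 8.79 and 7.95. How far the shares depend on this was not tested. The 8 myelin genes had reached 60.2% to 99.4% of theirs, with a median of 79.9%. In heterozygotes Evi2a had reached 52.1% and 55.1% by P15, and the myelin genes 80.3% to 109%, with a median of 93.3%. After P15 Evi2a went on by 1.81 and 1.63 log2 units in wild type, while the median myelin gene went on by 0.71. The myelin genes ranged from 0.017 to 1.704, with Mal highest, followed by Mobp (1.52) and Cldn11 (1.37). The brighter probe set thus lay above all of them, and the dimmer below Mal alone. In heterozygotes Evi2a went on by 1.501 and 1.57, above all the myelin genes (-0.22 to 0.94). On the plot of libraries, Evi2a levels still spread widely where the mean of the myelin genes lay between 9 and 10.

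**Figure D2:**
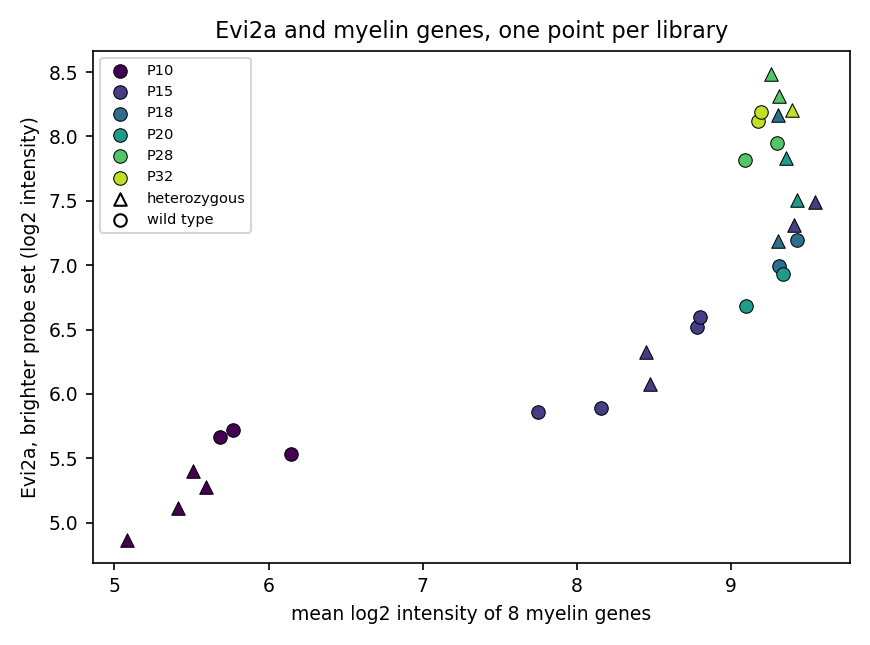
Log2 intensity of the brighter Evi2a probe set against the mean log2 intensity of 8 myelin genes, 1 point per library; colour gives age, circles are wild type and triangles Nf1 heterozygous. Up to P15 both rise together; where the myelin mean is above 9, Evi2a is lowest in a wild-type P20 library and highest in a heterozygous P28 library.

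Markers of other cells are read against the 38.2% of all probe sets called in wild type, with 18% of all called as higher. Of 17 listed microglia and blood cell markers, 16 were on the array and 11 tested; 2 rose and 1 fell in wild type, with a median of 0.20. Ctss, the microglial protease cathepsin S, rose by 1.22 and the leukocyte membrane protein Cd53 by 0.95 (not called without wild-type P10 2b, adjusted p = 0.0509), and the fractalkine receptor Cx3cr1 fell by 0.75. Of 8 tested astrocyte markers 6 rose and 0 fell (median 0.85), among them Glul by 2.51 and S100b by 1.68. Of 3 tested markers of oligodendrocyte precursors 1 rose and 1 fell, and of 10 tested neuron markers 3 rose (median 0.36). Of 3 tested choroid plexus markers 1 rose (Kl, by 2.496; median 2.23), and the summed level of the 4 on the array varied widely within groups, from 111 to 1050 at wild-type P10 and from 385 to 4893 at heterozygous P28. The only tested Schwann cell marker was not called (0.12). Their part in the rise of Evi2a was not tested.

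Heterozygous libraries had more Evi2a than wild-type libraries from P15 to P28 on average, but no genotype difference passed the test. Over all ages, heterozygotes exceeded wild type by 0.32 log2 units on the brighter probe set (SE 0.15, 95% CI 0.02 to 0.62, limma adjusted p = 0.512) and by 0.41 on the dimmer (SE 0.14, 95% CI 0.13 to 0.69, limma adjusted p = 0.365). Limma called 0% of probe sets for genotype over all ages, with 698 at an unadjusted p under 0.05. An exact permutation of genotype within age, over 1587600 arrangements and two-sided, gave p = 0.0589 for the brighter and p = 0.0115 for the dimmer probe set, without adjustment. The F test of whether the difference changed with age was not called either, at F = 2.70 (adjusted p = 0.179) and 2.85 (adjusted p = 0.164), where 6.49% of probe sets were called.

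Age by age, the difference of heterozygous minus wild type on the brighter probe set was -0.47 at P10 (95% CI -1.03 to 0.08), 0.59 at P15 (0.07 to 1.10) and 0.58 at P18 (-0.14 to 1.31). It was 0.86 at P20 (0.14 to 1.59), 0.52 at P28 (-0.21 to 1.24) and 0.05 at P32 (-0.84 to 0.94). The dimmer probe set gave -0.24, 0.42, 0.86, 1.02, 0.69 and 0.04 at the same ages. None of these was called; the lowest adjusted p was 0.0550, for the dimmer probe set at P18. The shares of probe sets called were 0.0403% at P10, 0% at P15 (440 at an unadjusted p under 0.05), 22.8% at P18, 2.27% at P20, 0.0134% at P28 and 0.0537% at P32.

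On the brighter probe set every heterozygous library lay below every wild-type library at P10, as did 4.78% of probe sets. Every heterozygous library lay above every wild-type library at P20 (26.8% of probe sets) and P28 (19.2%), and the single heterozygous P32 library lay above both wild-type libraries (34.6%). On the dimmer probe set the genotypes separated upward at P18 (26.1% of probe sets), P20 and P28, and overlapped at P10, P15 and P32. With 2 libraries a group such separation is common on these arrays.

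**Figure D3:**
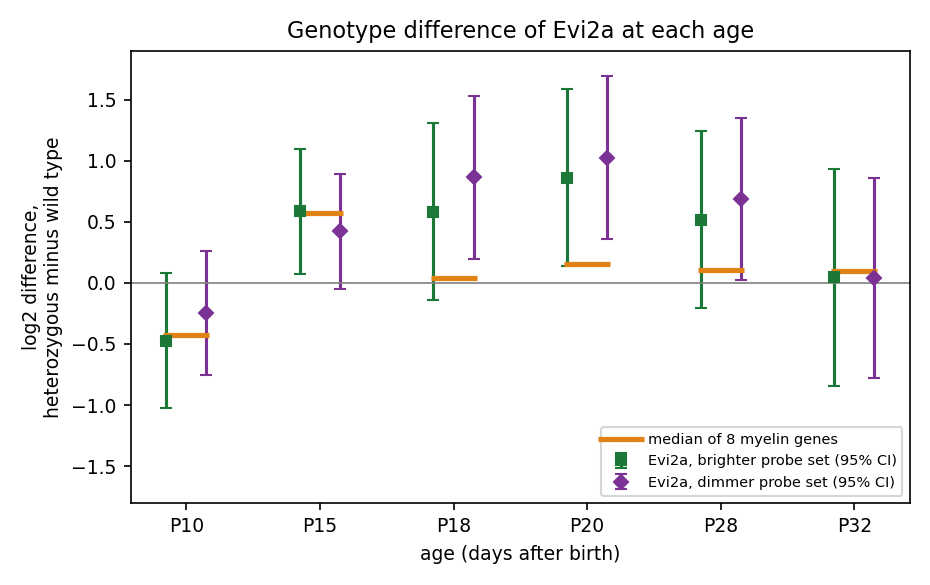
Difference in log2 intensity, heterozygous minus wild type, at each age for the brighter (squares) and dimmer (diamonds) Evi2a probe set, with 95% confidence intervals from limma; orange bars give the median difference of 8 myelin genes. Evi2a is below 0 at P10, highest at P20 (0.86 and 1.02) and near 0 at P32, while the myelin median is 0.15 or less from P18 on.

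Title numbers at P15 and the Gapdh 3′ to 5′ control ratio at P18 and P20 moved with these differences. At P15 the difference depended on the number in the library titles: heterozygotes minus wild type was -0.35 among libraries numbered 1 and 1.52 among those numbered 2 on the brighter probe set, and -0.09 and 0.93 on the dimmer. The mean of the myelin genes did the same, at -0.33 and 1.53, and the same 2 heterozygous libraries, 2c and 2d, were high in both. At P20 the wild-type libraries were numbered 2 and the heterozygous libraries 1, so number and genotype cannot be told apart there.

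The Gapdh 3′ to 5′ ratio was higher in heterozygotes at P18 and P20. It was -0.26 and -0.23 in wild type against -0.05 and 0.48 in heterozygotes at P18, and -0.33 and -0.30 against 0.00 and 0.17 at P20. At P15 the genotypes overlapped, from -0.26 to -0.12 in wild type and from -0.22 to -0.08 in heterozygotes. At P28 the ratio was 0.05 and 0.15 in wild type against -0.14 and 0.03 in heterozygotes. At P18, P20 and P28 the ratio did not overlap between genotypes, so ratio and genotype cannot be told apart at these ages. With that ratio as a covariate the brighter probe set differed by 0.04 at P18 and 0.38 at P20, and the dimmer by 0.22 and 0.46. Over all ages the difference was 0.20 and 0.27. At P28, with the same covariate, it was 0.70 and 0.90.

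The difference at P18 depended on which heterozygous library was used. Without 1b the brighter probe set differed by 0.10 at P18 and the dimmer by 0.35, and on the dimmer the other library, 1a, still lay above both wild-type libraries. Without 1a the brighter difference was 1.07 and the dimmer's 1.38, and both were called. These 2 differences rest on 1b alone, the library with the highest Gapdh ratio (0.48). The dimmer's P18 difference was also called without heterozygous P15 1c (adjusted p = 0.0373) or 2d (adjusted p = 0.0365), and its P20 difference of 1.02 without heterozygous P18 1a (adjusted p = 0.0435) or 1b (adjusted p = 0.0440). Without 1a the dimmer's change of genotype difference with age was called too (adjusted p = 0.0281). The myelin mean did not set 1b apart, at 9.30 against 9.31 in 1a.

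By the median of the 8 myelin genes, heterozygotes minus wild type was -0.43 at P10, 0.57 at P15, 0.04 at P18, 0.15 at P20, 0.10 at P28 and 0.10 at P32, and none of these genes was called at any of these ages. At P10 and P15 the sign and size were close to those of Evi2a, and from P18 to P28 the Evi2a differences were larger in size than the myelin median. Differences at P18 and P20 were not particular to Evi2a. Of 8 tested astrocyte markers, 2 were called higher in heterozygotes at P18 (Glul by 1.29, Aqp4 by 0.74) and 1 lower, with a median of 0.24. At P20, 2 were called higher (Aqp4 by 1.03, Glul by 0.90) and 0 lower, with a median of 0.30. The shares of all probe sets called were 22.8% and 2.27% at these ages. Whether the Evi2a differences differ from those of the myelin or astrocyte genes was not tested.

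Nf1 itself was dim in every library, and neither genotype nor age passed the test for it. Its probe set read between 1.43 and 19.1, with a median of 5.66, and only 1 of 30 libraries read above 16. Its mean stood at the 13.5th percentile of non-control probe sets, below the filter, so its tests come from the fit on all 12422. Which part of the gene its probes cover, and whether the disrupted allele still makes that part, is unknown here, so it is no check of the genotype labels.

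At P10 the Nf1 probe set read between 1.43 and 9.41 in wild type and between 2.15 and 11.5 in heterozygotes. At P15 the wild-type libraries read 4.10 to 11.99 and the heterozygous 3.60 to 15.04, and at P18 the pairs ran from 4.80 to 6.17 and from 5.09 to 10.1. At P20 the wild-type pair read 6.25 and 15.9 and the heterozygous pair 2.19 and 2.92. At P28 the pairs ran from 2.15 to 19.1 and from 5.89 to 12.4, and at P32 the wild-type libraries read 4.57 and 7.81 beside 3.44 in the heterozygous library. The genotypes overlapped at every age but P20 and P32, where heterozygotes were lower; 21.1% and 35.2% of all 12422 probe sets separated the same way at these ages. The 2 wild-type P28 libraries lay about as far apart as the whole set.

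Heterozygotes minus wild type over all ages was -0.13 log2 units for Nf1 (SE 0.35, 95% CI -0.84 to 0.59, limma adjusted p = 0.943), in a fit that called 0% of probe sets, with 1089 at an unadjusted p under 0.05. The exact permutation of genotype within age, two-sided, gave p = 0.736. At P20 the difference was -1.98 (95% CI -3.93 to -0.02, adjusted p = 0.371; 0.765% of probe sets called). Maturation was 0.67 in wild type (95% CI -0.82 to 2.17, adjusted p = 0.565; 22.5% called) and 0.43 in heterozygotes (95% CI -1.11 to 1.98, adjusted p = 0.728; 22.8% called). The step from P10 to P15 was 0.90 (adjusted p = 0.2498; 15% called), and the change of the genotype difference with age had F = 1.07 (adjusted p = 0.664; 2.81% called). The intervals for maturation reach from below -0.8 to about 2 log2 units, so rises of several-fold lie within them.

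**Figure D4:**
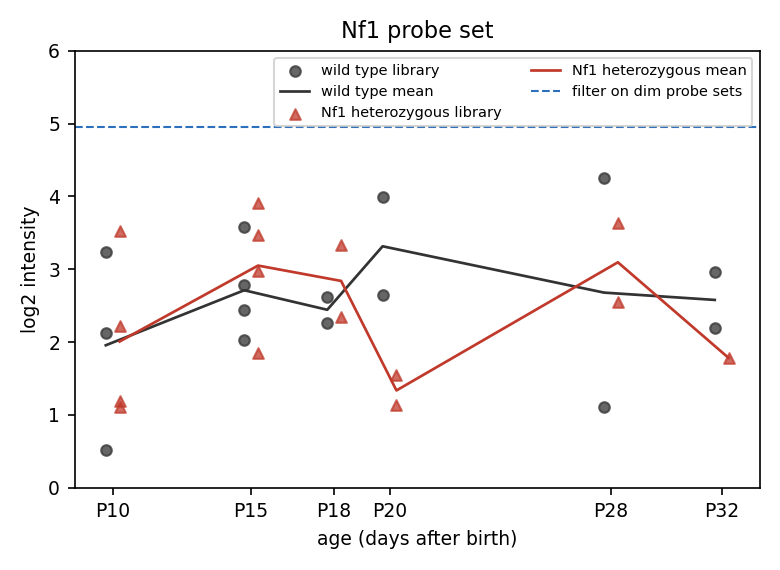
Log2 intensity of the Nf1 probe set against age in days after birth; each point is 1 library, circles wild type, triangles Nf1 heterozygous, lines join group means, and the dashed line at 4.95 is the filter on dim probe sets. Every library lies below the filter line, and the genotypes overlap at every age but P20 and P32.

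Genes that act with or like neurofibromin or Omg are read against the same shares of all probe sets, 38.2% called in wild type and 36.5% in heterozygotes. Those called as higher were 18% and 17% of all. Of 11 listed Ras GTPase-activating proteins and SPRED proteins, which bring neurofibromin to the membrane, 6 were on the array and 5 tested. In wild type 1 rose: Spred2, by 0.63 (SE 0.15, adjusted p = 0.0015). Rasa1, the p120 Ras GTPase-activating protein, differed by 0.19 in wild type without a call and rose by 0.42 in heterozygotes (adjusted p = 0.0098), where 2 of the 5 rose. Rasa3 and Dab2ip differed by 0.11 and 0.09 in wild type. Of 13 listed genes of myelin inhibition of nerve fibre growth, Omg among them, 6 were on the array and all 6 tested. In wild type 1 rose: Mag, the myelin-associated glycoprotein, by 2.97 (SE 0.27, adjusted p = 2.1e-08). Rhoa, the GTPase at the end of that pathway, differed by -0.32 in wild type and fell by 0.73 in heterozygotes (adjusted p = 0.0064), where 1 of the 6 rose and 2 fell. No gene of either list was called for genotype over all ages, where 0% of all tested probe sets were. At P18, where 22.8% of probe sets were called, 1 of the 5 was higher in heterozygotes. Of the 6, 1 was higher and 1 lower at that age.

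The rise of Evi2a was larger than that of any tested neighbour of Nf1. Within 1 Mb of the Nf1 body RefSeq lists 38 protein-coding genes, and 22 genes had 29 probe sets, of which 22 passed the filter. In wild type 3 of these 22 probe sets rose and 5 fell, with a median of -0.08, so 8 of 22 were called where 38.2% of all probe sets were. The largest rise was that of Nlk, a Wnt-pathway kinase, at 0.99 (SE 0.14, adjusted p = 5.5e-06), followed by Tmem199 at 0.63 (SE 0.11, adjusted p = 7.6e-05). The third was 1 of 3 tested probe sets of Psmd11, a proteasome subunit, at 0.36, and the others of that gene gave -0.39 and -0.04 without a call. Cdk5r1, the neuronal activator of Cdk5, fell by 0.80 (SE 0.19, adjusted p = 0.0016). The brighter Tnfaip1 probe set fell by 0.56, while its other tested probe set gave -0.09 (adjusted p = 0.80); Vtn (vitronectin) fell by 0.55, Ksr1, a scaffold of the Ras pathway, by 0.49 and Tmem97 by 0.46. These 4 calls were not stable. They held in 6 of 13 alternatives for Ksr1 (adjusted p up to 0.206), 7 of 13 for Vtn (up to 0.150), 9 of 13 for Tmem97 (up to 0.174) and 9 of 12 for Tnfaip1 (up to 0.120). All 4 ended without wild-type P10 2a, and each ended without at least 1 wild-type P32 library: Vtn and Tnfaip1 without 1a (adjusted p = 0.228 and 0.125), Ksr1 without 1b (0.128) and Tmem97 without either. Ksr1, Vtn and Tmem97 ended without wild-type P10 1b or either wild-type P28 library, Ksr1 and Vtn without wild-type P10 2b, and Tmem97 without either heterozygous P28 library (adjusted p = 0.0501 at most). None of the 22 was called for genotype over all ages, where 0% of all tested probe sets were. Single ages were read with each gene by its brightest probe set. At P18, 3 of 19 tested neighbour genes were called higher and 5 lower in heterozygotes, where 22.8% of probe sets were called. At P20, 1 was called, Cdk5r1, lower by 1.01 (limma adjusted p = 0.0332), where 2.27% of probe sets were called.

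**Figure D5:**
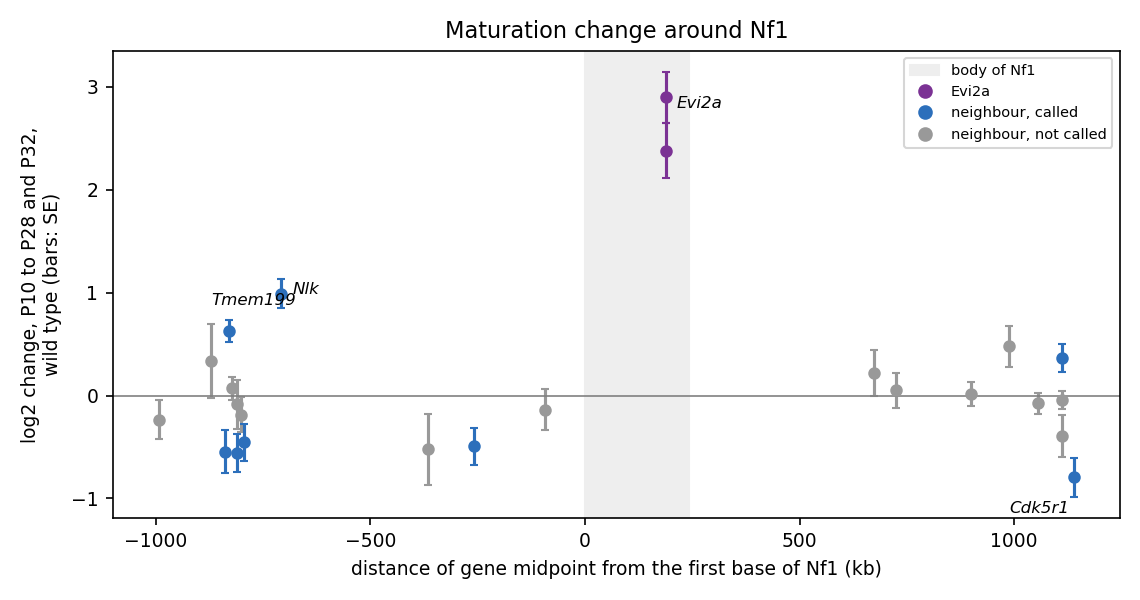
Wild-type log2 change from P10 to the mean of P28 and P32, with SE, against the distance in kb of each gene's midpoint from the first base of Nf1, for the 22 tested neighbour probe sets and the 2 of Evi2a; the grey band is the body of Nf1. Evi2a lies at 2.38 and 2.90, and the highest neighbour, Nlk, at 0.99.

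Among 5693 other genes, those whose 12 group means followed the brighter Evi2a probe set most closely were Olfm1 (Pearson r = 0.991), Mcfd2, Lats2, S100b, Septin4, Fth1, Cherp and Bcap29 (r = 0.973). For the dimmer probe set they were S100b (r = 0.991), Septin4 (r = 0.990), Mcfd2, Olfm1, Atf6, Cherp, Ctss and Pi4ka (r = 0.973). S100b is a calcium-binding protein of glia, Septin4 a filament protein found in myelin and other cells, and Fth1 the heavy chain of ferritin. None of the listed myelin genes was among the closest, while S100b was a listed astrocyte marker and Ctss a listed microglia marker. These correlations are over group means that share libraries and age, and they are a description. Septin4 was near Evi2a in size, rising by 2.46 in wild type and by 2.90 in heterozygotes, with a heterozygous minus wild-type difference of 0.83 at P20. S100b rose by 1.68 and 1.89, with 0.53 at P20. Both genes were picked by correlation over these same group means, so the direction of their differences is no further likeness.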

How the data were processed

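Hippocampal RNA of 30 pooled libraries was hybridised to Affymetrix MG-U74Av2 arrays. The deposited values are linear intensities; the software was not given in the sources used here. In the deposited table, the mean of each array's intensities after trimming 2% at each end was 150 on every array, so arrays had been brought to a common level before deposit. Probe sets were named from the platform annotation: of 12422 non-control probe sets, 10833 carried 1 symbol, 396 several and 1193 none, and 10817 of those with 1 symbol matched a current RefSeq gene. No libraries held identical values. The number of arrays limits the precision.

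Intensities were floored at 1 and log2-transformed, and 4969 probe sets in the lowest 40% by mean were left out. limma 3.58.1 (R 4.3.3, intensity trend, statmod 1.5.0) was fitted with 1 mean per genotype and age, or with age and genotype, over all 30 libraries, two-sided, with Benjamini-Hochberg adjustment over 7453 probe sets. Nf1 was tested in the same fit on 12422. Genes were represented in lists by their brightest probe set. Named genes were the members, neighbours within 1 Mb, the 8 genes of highest correlation with each Evi2a probe set, and up to 4 members of each list by size of wild-type maturation. The members and lists were chosen with earlier results of these data known. Libraries were not treated as paired by codes shared between genotypes. Of 7 same-coded pairs, 1 had deviations correlated over 0.1 (range -0.18 to 0.13). With 2 libraries a group, the P28 pairs give the same value by construction (0.027). Such correlations cannot show whether a code marks a shared litter or batch. Data were simulated for 7453 probe sets with independent noise and 200 changed probe sets. The test of wild-type maturation recovered 89.6% of changes of 1 log2 unit and 40.3% of 0.5, with 11 of 164 calls false. That of the P20 genotype difference recovered 61.2% and 17.9%, with 6 of 123 false. The simulation held no effect shared by arrays, and the real maturation contrast called 38.2% of probe sets. Recovery in the real data may therefore differ. Alternatives covered the floor, filter, scaling, weights, blocks, a Gapdh covariate and leaving out libraries.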

Additional observations from a re-analysis of the deposited data

How the results depend on the processing

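Evi2a maturation in each genotype, and the P10 to P15 step averaged over genotypes and in heterozygotes, kept their calls under all 13 alternatives on the brighter probe set, under the 12 that kept the dimmer probe set in the test, and without each of the 30 libraries in turn; wild-type maturation of the brighter probe set ranged from 1.83 to 2.53 over the alternatives and from 2.33 to 2.42 over the libraries. For the Nf1 genotype effect over all ages the sign turned with quantile normalization (0.011), a block for title code (0.17) or a block for title number (0.0094), and the value ranged from -0.30 to 0.025 without each library. Nf1 maturation in wild type ranged from -0.11 to 1.46 and the Nf1 difference in maturation from -1.03 to 0.55 without each library; a floor of 16 gave no value for Nf1, which lay at that floor in nearly every library. The count of Evi2a steps between later neighbouring ages that were called, 2 on the brighter probe set, was 1 with array weights, 1 with only the groups compared, 1 with both heterozygous P18 libraries left out, 0 with the Gapdh covariate, and 1 to 2 without each library. Whether the title code marks a shared litter or batch is not known. With it as a replicate block, the Evi2a interaction of genotype and age was called (F = 11.7, adjusted p = 0.0186). The Evi2a genotype effect at each age was called at 1 age, P15 (1.52, adjusted p = 0.0019), and the Evi2a genotype effect at P18 turned to -1.29. The genotype difference in the P10 to P15 step (1.94, adjusted p = 0.0032) and the brighter wild-type step (1.07, adjusted p = 0.01996) were called. With the same block on the dimmer probe set, the wild-type P10 to P15 step lost its call (1.08, adjusted p = 0.0599), the P15 to P18 step was called (0.90, adjusted p = 0.0319), the P18 effect turned to -0.15 and the P18 to P20 step to -0.14. Without each library, the number of ages called was 0 to 1, the brighter P18 to P20 step ran from -0.39 to 0.10 and its P28 to P32 step from -0.0035 to 0.27, and the dimmer P18 to P20 step ran from -0.028 to 0.49 and its P32 genotype effect from -0.0071 to 0.086. The dimmer probe set's P18 genotype effect was called with log2(value + 32), quantile normalization or centred medians, and its P20 effect with log2(value + 32), array weights, only the groups compared or both heterozygous P18 libraries left out. The causes were not tested. Over all probe sets, the count called at P18 for genotype ranged from 0 (only the groups compared) to 2768, against 1700, at P20 from 10 to 387, against 169, and for the interaction from 22 to 1821, against 484. Nf1 is limited by signal: its readings lie near the array's low end.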
